A study of Mus musculus with 6 samples.

Results

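The Ifi200 genes are a mouse gene family on chromosome 1 whose proteins carry a pyrin domain, a HIN domain that binds DNA, or both. The 10 members described here, Ifi202b, Ifi203, Ifi204, Ifi205, Ifi206, Ifi207, Ifi208, Ifi209, Ifi211 and Ifi213, were taken by symbol from a table of 32212 gene rows. All 10 have a row, and 9 of them passed the filter on low counts, as did 13867 genes in all. The members were picked with their difference between the genotypes already known, so that difference is given below as a description and without a test. The data were RNA-seq counts from 3 WT and 3 CgA-KO livers, where CgA-KO mice lack chromogranin A, the prohormone encoded by Chga. Both groups were male C57BL/6 mice aged 2 yr, on normal chow and a daily rhythm of 12 hr of light and dark. The labels give no treatment besides the genotype, and neither the number of backcrosses nor the hour and feeding state at collection.

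Ifi200 genes belong to the PYHIN family together with Aim2, Mndal and Ifi214, which lie in or next to the same cluster. Interferons induce many of them through STAT and IRF factors, and macrophages are among the cells that express them most. Some PYHIN proteins sense DNA. Aim2 binds DNA in the cytosol and assembles an inflammasome through the adaptor encoded by Pycard, and Ifi204 is the usual mouse counterpart proposed for human IFI16, which acts through STING. Others stay in the nucleus and affect growth, differentiation or transcription. The study measured bacterial DNA in hearts of aging WT and CgA-KO mice, which is the context for comparing DNA-sensing genes.

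The 6 libraries held between 10558616 counts, in WT replicate 1, and 31087453, in WT replicate 2. Levels are CPM, the counts of a gene relative to the library size after TMM scaling (trimmed mean of M values, factors 0.757 to 1.12). Chga itself had 0 counts in every library, so it could not check the genotype labels. Albumin RNA (Alb) was between 30647 and 66135 CPM, and edgeR called 0 of 9 hepatocyte markers different (1 lower at an unadjusted p under 0.05, 1 lower by DESeq2), so both groups held liver RNA. edgeR's quasi-likelihood test called 1726 genes at an adjusted p-value under 0.05, 1193 of them higher in CgA-KO. In bulk RNA, fewer cells of a type and less RNA per cell cannot be told apart. Each library is labelled as a replicate of its genotype, and p-values measure the spread between these 3 and 3 samples only.

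The start sites of the family carry a shared element, which is shown first because most members hold it. RefSeq promoters on GRCm38.p6, from 250 bases before to 50 after each start, were given for 9 of the members and not for Ifi204. They were searched on both strands for the core of the interferon-stimulated response element (ISRE), to which STAT and IRF factors bind. Its letters are GAAA, 2 bases of any kind and GAAA. The promoters of 7 of the 9 members held it, compared with 3.44% of 32851 mouse promoters of the same length. Members were scored by gene, on any of their promoters, whereas the 3.44% counts single promoters. Several of the 7 promoters are near copies of each other, so they are not 7 separate occurrences. Another promoter of Ifi203, at chr1:173942623-173942922, held no match. The 7 stretches below read 5′ to 3′ on the strand of the gene, with the core in capitals. The core started at position -35 from the RefSeq start in Ifi203, -134 in Ifi205, -40 in Ifi206, -41 in Ifi207, -58 in Ifi208, -37 in Ifi211 and -73 in Ifi213. Ifi205 held another match on the opposite strand, at position 24 after the start.
Ifi203, chr1:173942498-173942542, minus strand: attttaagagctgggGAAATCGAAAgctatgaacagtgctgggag
Ifi205, chr1:174031860-174031904, minus strand: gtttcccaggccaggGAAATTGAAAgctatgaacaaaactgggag
Ifi206, chr1:173491329-173491373, minus strand: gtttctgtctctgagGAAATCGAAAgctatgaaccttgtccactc
Ifi207, chr1:173741821-173741865, minus strand: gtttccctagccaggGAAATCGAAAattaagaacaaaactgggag
Ifi208, chr1:173673592-173673636, plus strand: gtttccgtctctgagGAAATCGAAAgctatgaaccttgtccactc
Ifi211, chr1:173913054-173913098, minus strand: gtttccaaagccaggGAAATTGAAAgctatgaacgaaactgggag
Ifi213, chr1:173599316-173599360, minus strand: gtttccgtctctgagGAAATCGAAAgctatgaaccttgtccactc

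The stretches of Ifi208 and Ifi213 are the same base for base. Over the whole promoter window, Ifi208 and Ifi213 were identical at 89.5% of aligned positions, Ifi206 and Ifi208 at 87.5%, and Ifi207 and Ifi211 at 85.9%. The promoters of Ifi202b and Ifi209 held no match to these letters in the window. That of Ifi209 aligned to the promoter of Ifi214, a PYHIN gene that does hold the core, at 95.3% identity. The aligned stretches of this pair are shown because they differ inside the core, by the substitution G1T, counted from 1 at the first base of the core with the base of Ifi214 first.
Ifi214, chr1:173536007-173536051, minus strand: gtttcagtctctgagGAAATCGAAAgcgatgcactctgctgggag
Ifi209, chr1:173630765-173630809, plus strand: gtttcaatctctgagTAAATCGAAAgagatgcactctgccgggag

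Mndal held the core too, in a stretch identical to that of Ifi203, while Aim2 had no match. The combined ETS and IRF letters, GGAA, 2 bases of any kind and GAAA, were in 0 of the 9 and in 2.72% of all promoters. The GAS letters, TTCNNNGAA with N for any base, were in 1 of the 9, Ifi202b, and in 8.30% of all promoters. A match is a description of the letters and does not show that a factor binds there.

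Every tested member was higher in the CgA-KO livers, from 2.93-fold for Ifi203 to 31.3-fold for Ifi206. Of these, Ifi206 passed the filter on low counts through its CgA-KO libraries only. All 9 were called higher (5 without WT replicate 2) and 0 lower, beside 8.60% of all genes tested called higher and 3.84% called lower, 12.4% in either direction. In all 9 each CgA-KO library lay above each WT library, which was seen in 19.0% of all genes tested. Because the members were chosen on this contrast, nothing is read from these counts. The median log2 fold change of the 9 was 2.89, compared with -0.01 over all genes tested. Ifi203 had the narrowest gap, with its lowest CgA-KO library 1.34 times its highest WT library. Ifi202b was not tested.

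**Figure D1:**
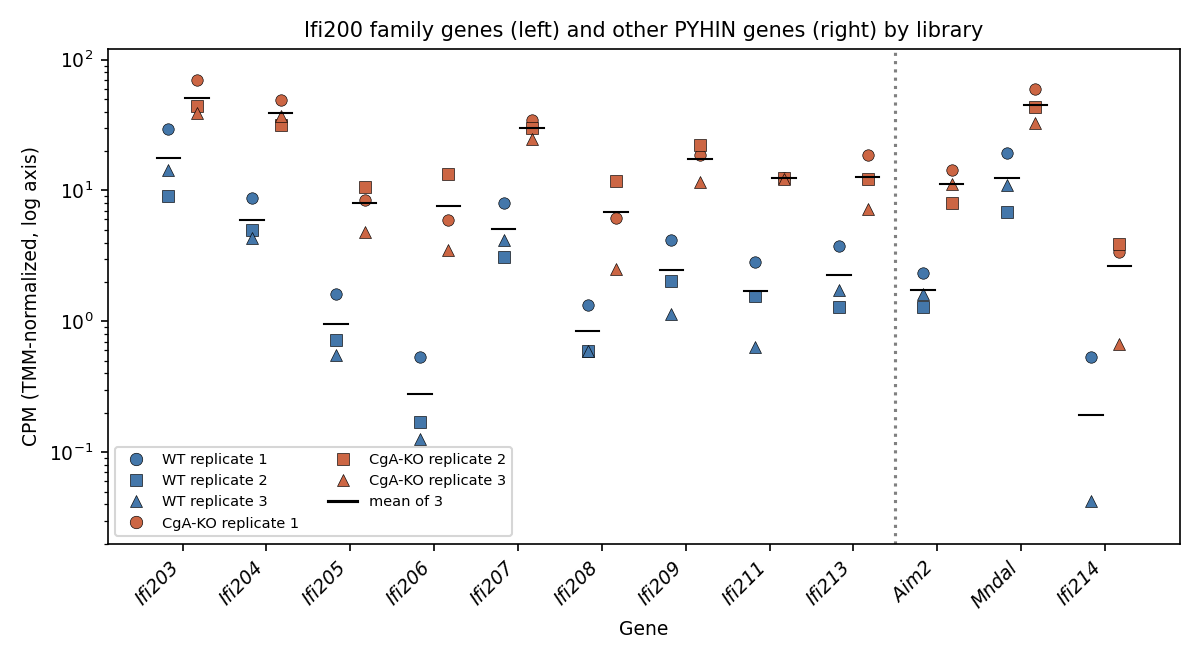
TMM-normalized CPM on a log axis of the 9 tested Ifi200 members, left of the dotted line, and of 3 other PYHIN genes, right of it. Each symbol is a liver (WT blue, CgA-KO orange, shape for the replicate number), bars are means of 3, and the WT replicate 2 value of Ifi214 is 0 and not drawn. In each of the 12 genes every CgA-KO symbol lies above every WT symbol, and WT replicate 1 is the highest WT symbol.

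Ifi204, at chr1:173747293-173766943 on the minus strand, encodes the DNA-binding protein p204. It had 8.68, 4.97 and 4.32 CPM in WT replicates 1, 2 and 3, and 49.1, 31.9 and 36.8 CPM in CgA-KO replicates 1, 2 and 3. All 3 CgA-KO livers were thus far above the WT livers, with the lowest of them 3.67 times the highest WT value. The means were 5.99 ± 2.35 and 39.3 ± 8.86 CPM (SD, n = 3), a log2 fold change of 2.74 (SE 0.30).

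Ifi203, at chr1:173920407-173942672 on the minus strand, was the most abundant member by CPM. Its WT values were 29.4, 9.01 and 14.3 CPM, and its CgA-KO values were 69.7, 43.8 and 39.3 CPM. The WT livers were widely spread, and WT replicate 1 came near the lowest CgA-KO liver. The log2 fold change was 1.55 (SE 0.41), the smallest of the 9. Ifi203 was no longer called when any of WT replicate 2 (1.23), WT replicate 3 (1.42), CgA-KO replicate 1 (1.28), CgA-KO replicate 2 (1.68) or CgA-KO replicate 3 (1.73) was left out, nor with library size alone as the scale (1.74). Without WT replicate 1 it was 2.15 and kept its call.

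Ifi207, at chr1:173723427-173741747, is a nuclear member. It had 7.97, 3.10 and 4.19 CPM in the WT livers and 34.8, 29.8 and 24.9 CPM in the CgA-KO livers. The CgA-KO values lay close together, and the groups did not overlap. The log2 fold change was 2.58 (SE 0.34), from 5.09 ± 2.55 to 29.8 ± 4.99 CPM.

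Ifi205, at chr1:174011998-174031810, encodes p205 and is the last member along the cluster. Its levels were 1.61, 0.723 and 0.550 CPM in WT and 8.49, 10.6 and 4.84 CPM in CgA-KO, a log2 fold change of 3.14 (SE 0.48). Ifi211, at chr1:173896345-173913046, had 2.86, 1.57 and 0.635 CPM in WT and 12.4, 12.5 and 12.3 CPM in CgA-KO, a log2 fold change of 2.94 (SE 0.45). Ifi211 was almost equal in the 3 CgA-KO livers while it varied in WT, and in both genes the groups were apart. In Ifi209, at chr1:173630917-173647928 on the plus strand, the WT livers had 4.21, 2.04 and 1.14 CPM and the CgA-KO livers 18.8, 22.2 and 11.5 CPM. Its log2 fold change was 2.89 (SE 0.46), and without WT replicate 2 it was 2.79 and lost its call.

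Ifi206, Ifi208 and Ifi213 have similar sequences and promoters. Ifi206, the first member along the cluster at chr1:173468485-173491041, was near the limit of detection in WT, with 6, 4 and 3 counts, and had 128, 424 and 79 counts in CgA-KO. As levels these were 0.537, 0.1701 and 0.127 CPM in WT and 5.94, 13.4 and 3.54 CPM in CgA-KO. CgA-KO replicate 2 stood out, at 2.84 times the mean of the other two CgA-KO livers. All its WT counts were under 10, the minimum count of the filter, so Ifi206 passed through its CgA-KO libraries only. The log2 fold change was 4.97 (SE 0.70), and it ran from 4.29 to 5.67 over the alternatives in which it was tested. With so few WT counts its size is uncertain, and it is not ranked against other genes.

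Ifi208, at chr1:173673675-173698395 on the plus strand, showed the same single high liver. It had 1.34, 0.595 and 0.593 CPM in WT and 6.12, 11.8 and 2.51 CPM in CgA-KO, with CgA-KO replicate 2 at 2.72 times the mean of the others. The log2 fold change was 3.08 (SE 0.61). Its call was lost without WT replicate 2 (2.89), WT replicate 3 (2.87) or CgA-KO replicate 2 (2.45). Ifi213, at chr1:173566283-173599274, did not follow that order among the CgA-KO livers, with 18.5, 12.2 and 7.26 CPM, against 3.76, 1.28 and 1.74 CPM in WT. The log2 fold change of Ifi213 was 2.54 (SE 0.47), and the call was lost without WT replicate 2 (2.24) or WT replicate 3 (2.38).

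Ifi202b, at chr1:173962568-173982744, was at 0 counts in each of the 6 libraries. The upper limit that such a value leaves, 3 counts, was 0.269 CPM in WT replicate 1 and 0.0951 CPM in CgA-KO replicate 2, the shallowest and the deepest library after scaling, for counting error only. Ifi202b RNA is known to be low or missing in C57BL/6J mice and high in some autoimmune-prone strains. Neither group thus held detectable Ifi202b RNA at this depth.

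Levels can be compared between members per kilobase of the longest annotated transcript. In CgA-KO livers Ifi204 was at 17.1 ± 3.86 CPM per kb and Ifi203 at 13.6 ± 4.37, a difference within their spread. Ifi207 followed at 8.71 ± 1.46, Ifi211 at 6.94 ± 0.0383, Ifi209 at 5.09 ± 1.59 and Ifi213 at 4.09 ± 1.83 CPM per kb. The step from Ifi209 to Ifi213 was within their spread, and those from Ifi207 to Ifi211 and to Ifi209 were little larger than the SD. Ifi206, Ifi205 and Ifi208 came last, at 2.51 ± 1.69, 2.44 ± 0.897 and 2.27 ± 1.56 CPM per kb, with no difference beyond the spread. In WT livers Ifi203 came first, at 4.68 ± 2.81 CPM per kb, before Ifi204 at 2.61 ± 1.03 and Ifi207 at 1.49 ± 0.746. The step from Ifi203 to Ifi204 was within the SD of Ifi203. That from Ifi204 to Ifi207 was little larger than their SDs. Ifi206 was last in WT at 0.0912 ± 0.074 CPM per kb.

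Summed over the members, the family held 60.3, 23.5 and 27.6 CPM in WT replicates 1, 2 and 3 and 224, 188 and 143 CPM in CgA-KO replicates 1, 2 and 3. The sum is not moved by counts that the quantification split between members, but counts shared with genes outside the members can move it. The log2 fold change of the sum was 2.32 (SE 0.37), or 5.002-fold, and all CgA-KO libraries were above all WT libraries. Without Ifi203, which held 46.3 ± 7.05% of the family counts in WT and 27.3 ± 3.92% in CgA-KO, the sum gave 2.79. With Aim2, Mndal and Ifi214 added it gave 2.25. Without WT replicate 1 the log2 fold change of the members' sum was 2.89.

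WT replicate 1 was the highest WT library in all 9 tested members, at 1.87 to 3.62 times the mean of the other two. It was the library with the fewest counts. Its summed macrophage markers were 541 CPM, against 287 and 244 CPM in WT replicates 2 and 3, and its summed B and plasma cell markers were 138 CPM, against 48.9 and 31.2 CPM. Among the CgA-KO livers, replicate 1 was highest in 4 members and replicate 2 in 5, and replicate 3 was lowest in 8. CgA-KO replicate 2, high for Ifi206 and Ifi208, also held 367 CPM of summed monocyte, dendritic cell and neutrophil markers, against 63.5 and 82.2 CPM in the other CgA-KO livers. Its summed T and NK cell markers were 171 CPM against 57.7 and 54.8 CPM. Mpo, an enzyme of neutrophil granules, had 2107 counts there and 0 and 15 in the others. The part of these cells in the members' values was not tested.

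The other PYHIN genes lie within or beside the members. Aim2, the inflammasome sensor at chr1:173350879-173466040, had 2.33, 1.28 and 1.61 CPM in WT and 14.2, 8.02 and 11.2 CPM in CgA-KO. Aim2 rose by a log2 fold change of 2.71 (SE 0.34, edgeR adjusted p = 0.00411) and kept its call in every alternative run. Mndal, at chr1:173849126-173942491, overlaps Ifi211 and Ifi203 in the annotation and had 19.4, 6.80 and 10.9 CPM in WT and 59.6, 43.3 and 32.5 CPM in CgA-KO. Its log2 fold change was 1.88 (SE 0.38, edgeR adjusted p = 0.0158), and the call was lost without WT replicate 3 (1.80), CgA-KO replicate 1 (1.66) or CgA-KO replicate 2 (1.94). Ifi214, at chr1:173519717-173535957, rested on 6, 0 and 1 counts in WT against 73, 123 and 15 in CgA-KO, and passed the filter through the latter only. It was called (4.199, SE 1.11, edgeR adjusted p = 0.0418), and not without WT replicate 2 (3.47), WT replicate 3 (3.61), CgA-KO replicate 1 (3.98) or CgA-KO replicate 2 (3.82), nor with limma-voom (4.58), library size alone (4.41) or the filter of at least 1 count in total (4.19). These 3 genes share their region with the members and were seen together with them, so they do not stand as independent support. Mndal and Ifi214 also share part of their sequence with members, and Aim2 does not.

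Because the genes are close copies, reads can belong to more than a single member. Salmon assigns such reads by an estimate, so the split between the closest copies is uncertain. In the GENCODE transcripts of GRCm38, the share of a gene's stretches of 31 bases that also occur in another gene was 1.20% for Ifi202b, 14.8% for Ifi207, 21.9% for Ifi203 and 22.1% for Ifi205. It was 26.6% for Ifi213, 34.6% for Ifi204 and for Ifi208, 36.4% for Ifi206, 47.2% for Ifi209 and 78.9% for Ifi211. Ifi211 was thus the member with the least sequence of its own. It shared 49.5% of its stretches with Ifi205 and 38.6% with Ifi204, whereas Ifi209 shared 46.8% with Ifi214 and Ifi208 shared 30.7% with Ifi213. For Ifi205 and Ifi211 all of the shared stretches were in other members. Other members held only 2.60% of the stretches of Ifi203 and 0.198% of those of Ifi209. For Ifi203, 15.9% were in Ifi203-ps, which has no row among the counts, and 4.71% in Mndal. Of the stretches of Ifi206, 14.5% were in Gm18752, a gene outside those listed here. Aim2 shared 0% with any other PYHIN gene. For stretches of 75 bases the median share over the members was 12.5%, and Ifi211 remained highest at 63.6%.

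**Figure D2:**
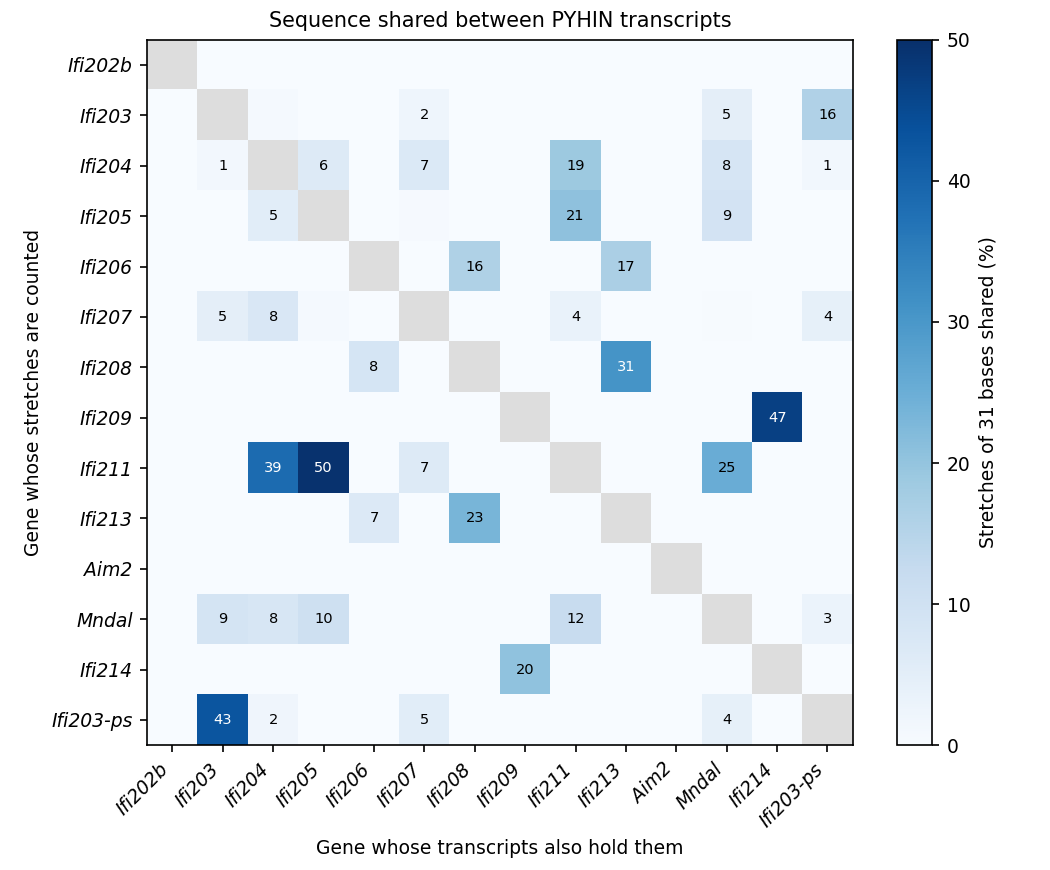
Heat map of the share of each gene's stretches of 31 bases (rows, in percent) that also occur in the transcripts of another PYHIN gene (columns), from GENCODE transcripts. The darkest cells are Ifi211 with Ifi205, Ifi209 with Ifi214, Ifi203-ps with Ifi203 and Ifi211 with Ifi204, while the rows of Ifi202b and Aim2 are empty.

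The genes on either side of the cluster were compared next, to see how far along the chromosome the difference reached. The members span 563 kb, at chr1:173468485-174031810. Within 2 Mb on either side, 36 genes outside the PYHIN family were tested, of which 7 (19.4%) were higher and 0 lower in CgA-KO, beside 8.60% and 3.84% of all genes tested. At an unadjusted p under 0.05 edgeR gave 13 higher and 0 lower, DESeq2 called 8 and 0, and limma-voom 7 and 0. Their median log2 fold change was 0.39. The 7 were Ly9, Slamf7, Cd48, Cd84, Slamf6, Slamf9 and Slamf8, receptors of the SLAM family on blood cells that lie before the Ifi200 genes. They are named here because they were called, after their values were known. Ly9, Slamf7, Cd48, Cd84 and Slamf6 lie 1515 to 1861 kb before the cluster. Slamf9 lies 990 kb before it, with genes between that were not called. Slamf1 (0.22, edgeR adjusted p = 0.837) and Cd244a (1.62, edgeR adjusted p = 0.270), of the same family, were tested and not called. Cd48 had 3.04, 1.74 and 1.57 CPM in WT and 15.03, 13.3 and 17.2 CPM in CgA-KO, a log2 fold change of 2.88 (SE 0.30, edgeR adjusted p = 0.00296). On the far side of the cluster 6 genes were tested and edgeR called 0, with 1 higher at an unadjusted p under 0.05 and 0 called by DESeq2 or limma-voom. Without WT replicate 2, WT replicate 3 or CgA-KO replicate 2 the number of neighbours called was 3.

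The nearest tested genes on each side were not called by edgeR's test. Before the cluster these were Cadm3, an adhesion molecule 101 kb away (0.84, SE 0.28, adjusted p = 0.0876), Ackr1, a chemokine-binding receptor (0.60, SE 0.51, adjusted p = 0.484), and Apcs, the serum amyloid P component (-0.51, SE 0.31, adjusted p = 0.314). After it they included Fmn2, an actin nucleator 470 kb away (1.12, SE 0.48, adjusted p = 0.160), and Fh1, the fumarate hydratase (-0.26, SE 0.24, adjusted p = 0.516). Fh1 changed sign, to 0.020, when library size alone set the scale. Over the 50 tested genes on either side, 12 of 100 were higher and 4 lower, with a median of 0.05. Whether the strains of the groups differ around the cluster was not tested, as counts hold no alleles.

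**Figure D3:**
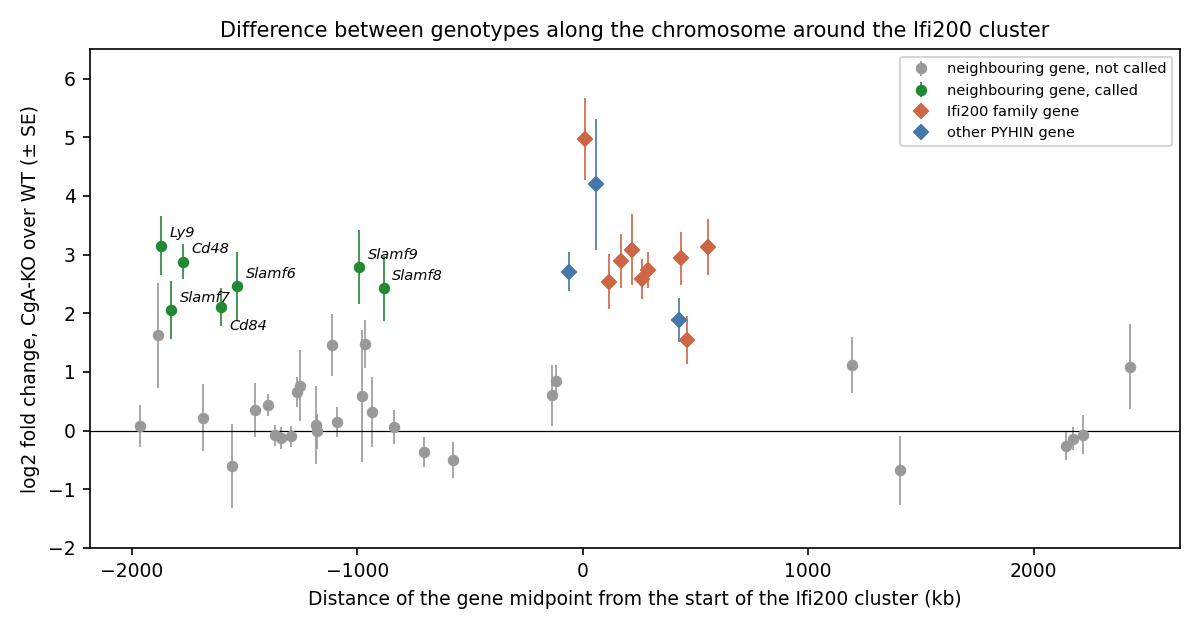
log2 fold change of CgA-KO over WT (± SE) against the distance of each gene's midpoint from the start of the Ifi200 cluster, in kb. Diamonds are the 9 tested Ifi200 members and 3 other PYHIN genes, circles the 36 other tested genes within 2 Mb, with the 7 called ones in green. The PYHIN genes lie between 1.55 and 4.97. The called neighbours all lie before the cluster, as do 30 of the 36 tested.

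The pathways around the family were followed from the sensors to the interferon targets, with lists that hold none of the members. Of 20 tested genes for cytosolic DNA sensing and nucleic acid removal, 5 (25.0%) were called higher and 0 lower by edgeR, with a median log2 fold change of 0.13. At an unadjusted p under 0.05 these were 7 and 2, with DESeq2 6 and 1 and with limma-voom 5 and 0. Zbp1, a sensor of left-handed nucleic acid, rose from 9.85, 6.29 and 4.61 CPM to 23.7, 39.96 and 23.5 CPM (2.09, SE 0.33, edgeR adjusted p = 0.00744). Sting1, the membrane adaptor downstream of Cgas, rose from 3.94, 1.403 and 1.31 to 12.8, 10.997 and 7.26 CPM (2.28, SE 0.45, edgeR adjusted p = 0.0157). Cgas, which makes the messenger that Sting1 binds, was low throughout, at 1.07, 0.510 and 0.762 CPM in WT and 2.97, 1.68 and 2.96 CPM in CgA-KO (1.73, SE 0.45, edgeR adjusted p = 0.0381). Sting1 lost its call without WT replicate 2, WT replicate 3, CgA-KO replicate 1 or CgA-KO replicate 2 (edgeR adjusted p from 0.0533 to 0.0745, log2 fold change from 1.99 to 2.26). Cgas lost it without WT replicate 2, WT replicate 3, CgA-KO replicate 1 or CgA-KO replicate 3 (edgeR adjusted p from 0.106 to 0.144, log2 fold change from 1.48 to 1.72).

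Samhd1, which degrades nucleotides and limits DNA synthesis, rose by 1.82 (SE 0.35, edgeR adjusted p = 0.0141) and Irf7, an interferon-inducible transcription factor, by 1.41 (SE 0.27, edgeR adjusted p = 0.0145). Without WT replicate 3 both lost the call, at 1.72 for Samhd1 and 1.21 for Irf7. Irf3, the factor activated first by Sting1, was at -0.24 on the log2 scale (edgeR adjusted p = 0.417), which turned to 0.017 with library size alone. The number of called genes on the list was 3 without WT replicate 2, 1 without WT replicate 3 and 3 without CgA-KO replicate 1.

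Of 12 inflammasome genes, 7 (58.3%) were called higher and 0 lower by edgeR, with a median of 1.76. In this list, as in those of interferon signalling, interferon-stimulated genes, macrophages and the other blood cells below, the count lower was also 0 at an unadjusted p under 0.05, with DESeq2 and with limma-voom. Casp1, the protease that inflammasomes activate, rose from 3.67, 2.17 and 2.45 CPM to 16.7, 9.22 and 11.7 CPM (2.20, SE 0.32, edgeR adjusted p = 0.00581). Il1b, which it matures, rose by 2.41 (SE 0.47, edgeR adjusted p = 0.0149), with the call lost without CgA-KO replicate 1 (2.17). Nlrp3, a sensor of cell stress, rose by 2.85 (SE 0.73, edgeR adjusted p = 0.0368) and was called in no fit that left out a library other than WT replicate 1, with values between 2.30 and 3.19. Pycard, the adaptor that Aim2 needs, had 3.85, 1.23 and 1.06 CPM in WT and 7.61, 5.29 and 6.27 CPM in CgA-KO and was not called (1.70, edgeR adjusted p = 0.0534). It was called without WT replicate 1 (2.51), as was Casp4 (1.22, edgeR adjusted p = 0.115, and 1.80 without that library). Il18, another target of caspase-1, had 0.49 (edgeR adjusted p = 0.374). The number called on the list was 4 without WT replicate 2 or CgA-KO replicate 3 and 2 without WT replicate 3 or CgA-KO replicate 1.

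RNA of the interferons themselves was hardly seen. Of 10 interferon ligands in the table, 0 passed the filter and 7 had 0 counts in all libraries. Ifnb1 had 0 counts in the WT livers and 1, 4 and 0 in the CgA-KO livers. Ifng, the interferon of T and NK cells, had 3, 1 and 2 counts in WT and 7, 16 and 4 in CgA-KO, which is too few for a comparison at this depth. Of 15 interferon receptor and signalling genes, 5 (33.3%) were called higher and 0 lower, with a median of 0.45. They included Irf8, a myeloid transcription factor (1.95, SE 0.31, edgeR adjusted p = 0.00774), Usp18, an inhibitor of receptor signalling (1.72, SE 0.40, edgeR adjusted p = 0.0256), Ifngr1 (1.67, SE 0.25, edgeR adjusted p = 0.00621) and Irf1 (0.98, SE 0.20, edgeR adjusted p = 0.0162). Among these, Usp18 was not called without WT replicates 2 or 3 or CgA-KO replicates 1 or 2 (1.34 to 2.06), and Irf1 without WT replicate 3 (0.94) or CgA-KO replicate 1 (0.99). Ifnar1 (0.28), Irf9 (0.44) and Stat2 (-0.24, and 0.14 without WT replicate 1) were not called. The number called was 3 without WT replicate 2, CgA-KO replicate 1 or CgA-KO replicate 2, and 2 without WT replicate 3.

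Of 25 tested interferon-stimulated genes outside the family, 17 (68.0%) were called higher and 0 lower, with a median of 1.91. Oas3, which makes the activator of RNase L, rose from 0.895, 0.468 and 0.508 CPM to 16.6, 14.1 and 5.42 CPM (4.34, SE 0.50, edgeR adjusted p = 0.00343). Mx1, an antiviral GTPase, rose by 3.16 (SE 0.51, edgeR adjusted p = 0.00803) and lost its call without WT replicate 3 (2.92). The RNA-binding genes Ifit2 (3.16, SE 0.34, edgeR adjusted p = 0.00296), Ifit3 (2.07, SE 0.28, edgeR adjusted p = 0.00513) and Ifit1 (1.85, SE 0.36, edgeR adjusted p = 0.0142) rose too. Isg15, a ubiquitin-like modifier, had 5.82, 5.91 and 1.69 CPM in WT and 7.10, 5.96 and 8.47 CPM in CgA-KO and was not called (0.69, edgeR adjusted p = 0.331). The number called was 10 without WT replicate 3.

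**Figure D4:**
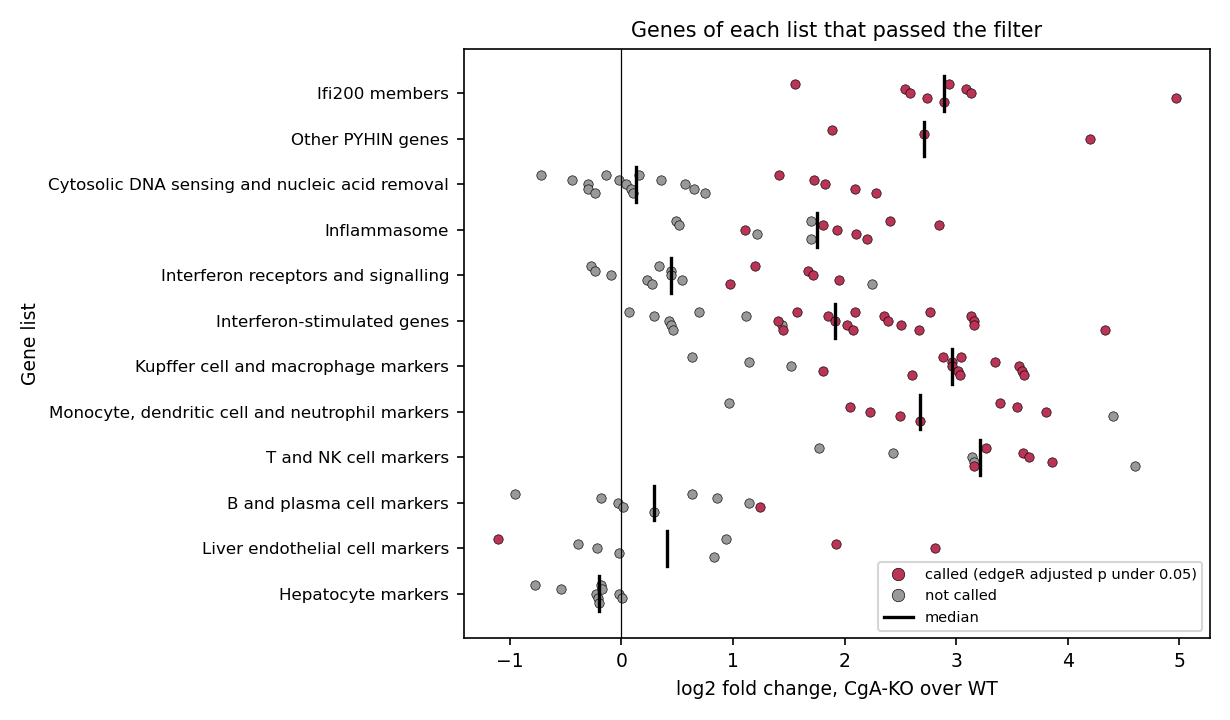
log2 fold change of CgA-KO over WT for each tested gene of 12 lists, in red where edgeR's adjusted p-value was under 0.05 and in grey otherwise, with the median as a bar. The Ifi200 members have a median of 2.89, near the 2.96 of the Kupffer cell and macrophage markers. The median is 2.67 for the monocyte, dendritic cell and neutrophil markers and 3.21 for the T and NK cell markers. That of the DNA sensing list is 0.13 and that of hepatocyte markers -0.20.

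Markers of macrophages and of several blood cells were higher in CgA-KO livers as the family was. Of 15 Kupffer cell and macrophage markers, all tested and none of them at 0 in all libraries, 12 (80.0%) were called higher and 0 lower, with a median of 2.96. Their sum was 244 to 541 CPM in WT and 1989 to 2496 CPM in CgA-KO. Adgre1, the macrophage antigen F4/80, rose by 3.61 (SE 0.41, edgeR adjusted p = 0.00322), Cd5l by 3.59 (SE 0.41, edgeR adjusted p = 0.00322) and Timd4 by 3.57 (SE 0.46, edgeR adjusted p = 0.00443). The Kupffer cell receptors Vsig4 and Clec4f rose by 3.35 (SE 0.38, edgeR adjusted p = 0.00322) and 2.96 (SE 0.54, edgeR adjusted p = 0.0122), the latter without a call when WT replicate 2 (2.67) or WT replicate 3 (2.69) was left out. Marco and Cd163 were not called. Without WT replicate 2 the number called was 7, and it was between 9 and 12 without any other library.

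Of 9 tested markers of monocytes, dendritic cells and neutrophils, 7 were called higher and 0 lower, with a summed level of 11.6 to 16.9 CPM in WT and 63.5 to 367 CPM in CgA-KO over 13 genes, where limma-voom called 5. S100a8, a neutrophil and monocyte protein, had 1.34, 2.59 and 1.10 CPM in WT and 10.3, 50.9 and 10.4 CPM in CgA-KO (3.81, SE 0.70, edgeR adjusted p = 0.0125). Its call was lost without WT replicate 1 (3.73), 2 (4.31) or 3 (3.55). Of 10 T and NK cell markers, edgeR called 5 higher and 0 lower, while limma-voom called 0 and DESeq2 7, with sums of 4.38 to 19.2 CPM in WT and 54.8 to 171 CPM in CgA-KO. Cd3e, a part of the T cell receptor complex, rose by 3.60 (SE 0.71, edgeR adjusted p = 0.0149), with no call without WT replicate 2 (3.31) or 3 (3.56). Without WT replicate 2 or WT replicate 3, 3 of the monocyte, dendritic cell and neutrophil markers and 0 of the T and NK cell markers were called, and without CgA-KO replicate 2 these were 4 and 2. Without WT replicate 1, 3 of the T and NK cell markers were called.

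Of 9 B and plasma cell markers 1, Igkc, was higher (not without WT replicate 2, WT replicate 3 or CgA-KO replicate 1, at 0.97 to 1.36) and 0 lower, with overlapping sums of 31.2 to 138 CPM in WT and 67.7 to 168 CPM in CgA-KO. Cd79a, a part of the B cell receptor, was at 0.011 on the log2 scale, with a sign that changed between settings. Of 8 liver endothelial markers 2 were higher and 1 lower, the former being 1 without WT replicate 2, WT replicate 3, CgA-KO replicate 1 or CgA-KO replicate 2 and 4 without WT replicate 1, with overlapping sums of 123 to 164 CPM in WT and 151 to 223 CPM in CgA-KO. Pecam1, an endothelial adhesion molecule, was not called (0.94, edgeR adjusted p = 0.0776), but was without WT replicate 1 (1.17) or CgA-KO replicate 3 (1.23).

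Set against the macrophage markers, the summed family gave overlapping values in the genotypes. Per 100 CPM of summed macrophage markers it amounted to 11.1, 8.16 and 11.3 CPM in the WT livers and 8.97, 8.12 and 7.19 CPM in the CgA-KO livers, and the groups overlapped. Of the single members, 7 overlapped on this scale, which was not computed for all genes tested, so nothing is read from this count. Ifi203 was lower in every CgA-KO liver, at 2.79, 1.89 and 1.97 CPM against 5.43, 3.14 and 5.87 CPM in WT. Ifi206 was higher, at 0.238, 0.580 and 0.178 CPM against 0.0992, 0.0592 and 0.0520 CPM. These ratios come from the contrast that chose the members and carry no test, and whether the macrophage RNA accounts for the members' difference was not tested.

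**Figure D5:**
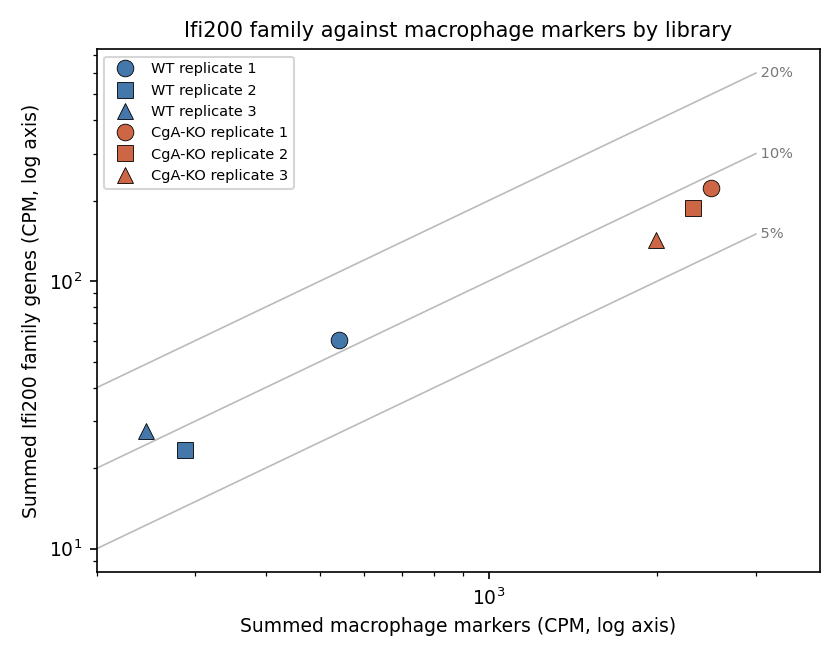
Summed CPM of the Ifi200 members against summed CPM of 15 macrophage markers, both on log axes, for each of the 6 livers, with grey lines of constant ratio. The 3 CgA-KO livers lie at 1989 to 2496 CPM of macrophage markers and the WT livers at 244 to 541 CPM, and their ratios overlap.

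Among 10374 tested genes that reached 5 CPM in at least the higher group, the 5 outside the family whose log2 CPM over the 6 libraries was most like the mean of the members included Ssbp4 (Pearson r = 0.9988), Sorl1 (0.9985), Cd274 (0.9972) and Ptpn18 (0.9965). The 6 points fall into the 2 genotypes, so these values mainly follow the difference between them and are given without a p-value. Cd274, which encodes the checkpoint ligand PD-L1, had 4.21, 1.83 and 1.61 CPM in WT and 18.1, 15.8 and 11.8 CPM in CgA-KO, with the same high WT replicate 1 and low CgA-KO replicate 3 as most members.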

How the data were processed

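Poly(A) RNA of 3 WT and 3 CgA-KO livers was sequenced with paired reads. The authors quantified the reads with Salmon 1.4.0, per their processing notes, against the GRCm38 transcriptome, and deposited raw counts, whole numbers per gene symbol that are not scaled for depth. How transcripts were summed to genes is not given in the sources used here. All columns were mapped to a sample (0 were not). Of the rows, 12519 were at 0 in every library and 78 repeated a symbol.

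From the counts, edgeR 4.0.16 in R 4.3.3 (filterByExpr with a minimum count of 10, TMM factors, robust quasi-likelihood fits, two-sided test, Benjamini-Hochberg adjustment over 13867 genes, threshold 0.05) compared the genotypes. SE is approximate, from the log2 fold change and the square root of F. Exact permutation of 3 against 3 cannot give p under 0.1. Floors are 3 counts and cover counting error only. Alternatives were DESeq2 1.42.0, limma-voom (limma 3.58.1), other scales, filters, a replicate block, a threshold of 0.01 and each library left out. Counts were simulated with changes of 2 on the log2 scale in 194 tested genes of 13633. Of these, edgeR called 79.9%, and 4.32% of its calls were false. For DESeq2 these values were 87.6% and 14.1%, and for limma-voom 80.4% and 4.88%. The simulation changed as many genes up as down, and far fewer than the 12.4% called here. Its rates therefore do not carry over to these data. The members and all lists were chosen with earlier results of these data known. Named are all PYHIN genes, preset genes of each list and up to 3 called genes with the largest change, the nearest 3 tested neighbours on each side and the 5 most alike genes. Some genes under this rule are not reported here. Coordinates and transcripts are from GENCODE on GRCm38, promoters from RefSeq on GRCm38.p6. Protein sequences were not used here. Figures were drawn with matplotlib 3.10.9.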

Additional observations from a re-analysis of the deposited data

How the results depend on the processing

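The number of genes called, 1726, was 2601 with DESeq2 and 360 at a threshold of 0.01. With library size alone 1493 genes were called, 86.6% of them higher in place of 69.1%, and the median over all genes moved from -0.01 to 0.26 on the log2 scale. All 9 tested members kept a positive log2 fold change in every alternative that tested them. The median share of sequence in another gene fell to 12.5% for stretches of 75 bases, and the called neighbours, 7, to 4 with at least 10 counts in every library and 2 within 1 Mb. With each library left out, the ranges were 394 to 2126 genes, 5 to 9 members called, a member median of 2.52 to 3.49, a member sum of 2.08 to 2.89, 1 to 3 other PYHIN genes, 1 to 5 DNA sensing, 2 to 10 inflammasome, 2 to 5 receptor and signalling and 10 to 16 interferon-stimulated genes, and 3 to 10 neighbours. Fits without a library have 2 livers in a group. Signs changed only for genes that were not called. Cd79a was -0.060 with DESeq2, -0.013 with DESeq2 size factors, -0.50 without WT replicate 2, -0.41 without WT replicate 3 and -1.04 without CgA-KO replicate 1 (1.82 without WT replicate 1). With library size alone Alb was 0.082, Fh1 0.020 and Irf3 0.017. With each library left out, Alb ran from -0.40 to 0.0053, the latter without CgA-KO replicate 3, and Stat2 from -0.51 to 0.14, the latter without WT replicate 1. The causes were not tested. Of the settings with at least 1 count in total and at least 10 in every library, both dropped the call of Ifi203, and the latter did not test Ifi206. No member's symbol was repeated, so leaving out repeated rows gave no value for the members.

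The labels do not say that the replicate numbers pair the livers. The deviations of same-numbered libraries had correlations of 0.199, 0.0127 and -0.0659, and those of other pairs ran from -0.264 to 0.234. With 3 libraries in each group such correlations cannot decide whether the numbers pair the livers. With the replicate block, 1498 genes, 9 members and 6 neighbours were called, the member median was 2.87 and the member sum 2.42.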

Other observations

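Within the family, the share of each member in the members' counts comes from the contrast that chose the members and carries no test. Ifi203 held 48.7%, 38.4% and 51.9% of the members' counts in WT replicates 1, 2 and 3 and 31.1%, 23.3% and 27.5% in CgA-KO. Ifi206 held 0.890%, 0.725% and 0.459% in WT, from 6, 4 and 3 counts, and 2.65%, 7.14% and 2.48% in CgA-KO. For Ifi207 the lowest and highest WT shares were 13.2% and 15.2%, and those of CgA-KO 15.6% and 17.4%, so the groups were close without overlapping. Ifi205 did not overlap either, at 1.99% to 3.08% in WT and 3.38% to 5.66% in CgA-KO. The shares of Ifi204, Ifi208, Ifi209, Ifi211 and Ifi213 overlapped between the genotypes. Shares of a sum depend on each other, so a lower share of Ifi203 goes with higher shares elsewhere.

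Nnt, a mitochondrial transhydrogenase on chromosome 13, differs between C57BL/6 substrains and has a pair of rows in the table. The row Nnt had 14.1, 20.3 and 13.97 CPM in WT and 7.61, 13.5 and 6.81 CPM in CgA-KO (log2 fold change -0.79, edgeR adjusted p = 0.118). The row Nnt.1 had 19.96, 22.2 and 25.3 CPM in WT and 25.4, 22.1 and 26.0 CPM in CgA-KO (0.12, edgeR adjusted p = 0.689). Neither was called in this fit. Every CgA-KO value of Nnt lay below every WT value, and Nnt was called lower with the replicate block (-0.84) and without CgA-KO replicate 2 (-1.12), while in the other alternatives it was not called. What the rows hold separately is not given in the sources used here.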
